A study of Mus musculus with 9 samples.

Results

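A set of 8 genes, from families of receptors and bridging proteins with members through which macrophages recognise dying cells, was followed across 3 populations of mouse peritoneal macrophages: the TIM genes Timd4 and Timd2, the TAM receptor kinases Mertk, Axl and Tyro3, and the secreted bridging proteins Gas6, Pros1 and Mfge8. They were taken by gene symbol, which matched 8 of the 47729 gene identifiers in the count files. The measurements were RNA-seq read counts in 9 libraries, 3 each of converted, resident and monocyte-derived macrophages sorted by flow cytometry. All mice had the genotype Cx3cr1CreERT2-IRES-EYFP/+ Rosa26-stopfl-tdTomato/+, a tamoxifen-inducible Cre driven by Cx3cr1 with a Cre-dependent red reporter, and all received complexes of IL-4 (5 µg) and its antibody (25 µg) every other day from 4 days before harvest. Converted macrophages came from mice that had received thioglycollate (2 ml) and were fed tamoxifen throughout the 10 weeks before harvest. The labels name no further treatment for resident macrophages. Monocyte-derived macrophages were harvested on day 4 after 2 ml of thioglycollate, a sterile irritant used to recruit monocytes from the blood. Age, sort gates and whether a group's libraries are from different mice are not given in the labels, so p-values measure the spread between libraries, which may be technical.

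As background, cells that die by apoptosis expose the lipid phosphatidylserine on their surface, and macrophages bind it either directly or through a soluble bridge. Of the TIM family, the Timd4 product binds the lipid itself and tethers the corpse. TAM kinases do not touch it: the vitamin K-dependent proteins encoded by Gas6 and Pros1 bind the lipid at one end and the kinase at the other, and the kinase then signals for engulfment and for dampened inflammation, while the Mfge8 product links the lipid to integrins. Timd4 is widely used as a marker of long-lived resident macrophages of the peritoneal cavity.

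Both TIM genes lie in the same gene cluster and were near absent from monocyte-derived libraries, so the sequence upstream of each start site is shown. Both are taken from RefSeq's promoter table (GRCm38.p6), which held entries for all 8 genes. The Timd4 window (chr11:46810549-46810798, plus strand) has capitals at its only match to the 7 motifs searched, a MAF-type motif. The Timd2 window (chr11:46707105-46707354, minus strand) had no match, so it holds no capitals.
Timd4: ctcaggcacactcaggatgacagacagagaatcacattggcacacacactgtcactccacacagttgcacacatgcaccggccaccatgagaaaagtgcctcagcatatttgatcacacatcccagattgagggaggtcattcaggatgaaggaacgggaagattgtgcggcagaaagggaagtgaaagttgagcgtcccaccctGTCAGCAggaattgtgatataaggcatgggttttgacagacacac
Timd2: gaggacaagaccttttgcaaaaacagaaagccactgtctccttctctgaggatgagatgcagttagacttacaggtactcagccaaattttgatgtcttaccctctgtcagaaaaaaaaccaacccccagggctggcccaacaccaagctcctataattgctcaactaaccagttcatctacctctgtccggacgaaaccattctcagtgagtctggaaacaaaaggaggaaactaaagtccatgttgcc

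The capitals in the Timd4 window are the reverse complement of the MAF-type motif TGCTGAC and end 38 bases before the start site. Searched on both strands, that motif was found in 3.81% of the 32851 windows of 250 bases in the table. The other motifs were a GATA motif (AGATAA or TGATAA, in 16.6% of windows), the PU.1 motif GAGGAAGT (2.44%), the AP-1 motif TGANTCA (6.75%), the nuclear receptor repeat DR4 (0.0152%), the KLF/SP motif CCCCGCCCC (10.4%) and TATAAA (12.4%). Among the other genes, Pros1 had a GATA match, and Mertk, Gas6 and Pros1 had a KLF/SP match. A further RefSeq start of Timd2, whose window overlaps an annotated Timd2 exon, held the MAF-type motif 89 bases upstream. The bases just after that further start occur in an annotated Timd2 transcript, and those just after the start of the window shown do not. From the nearest annotated transcript start, the start of the window shown lies 43 bases away and the further start 132 bases. The G and C content was 50% in the Timd4 window and 45.6% in the Timd2 window shown, beside a median of 52.4% over all windows. A match describes letters only, and no binding was measured here.

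The libraries held 15220884 to 20496258 reads in genes. Macrophage transcripts were abundant in every group: 7 macrophage markers summed to 6455 to 8050 CPM (reads scaled to library size, with TMM factors) in converted, 6821 to 7132 CPM in resident and 4332 to 6984 CPM in monocyte-derived libraries. Against monocyte-derived libraries 2 of the 7 were higher and 3 lower in converted and likewise in resident libraries, and Adgre1, the F4/80 gene, averaged 3077 CPM in converted, 2978 CPM in resident and 343 CPM in monocyte-derived libraries. Of these markers Fcgr1 was low, at 0.467, 0.538 and 15.9 CPM on average in converted, resident and monocyte-derived libraries. Cx3cr1, whose locus drives the Cre, had 6 reads in converted, 10 in resident and 20 in monocyte-derived libraries. The 7 B-cell markers summed to 67.2 to 176 CPM in converted, 1139.7 to 1473 CPM in resident and 38.4 to 79.6 CPM in monocyte-derived libraries. Other cell types also moved with the comparisons to monocyte-derived libraries. The 6 NK-cell markers summed to 1.94 to 2.57 CPM in converted, 15.8 to 25.1 CPM in resident and 19.1 to 96.1 CPM in monocyte-derived libraries. The 7 neutrophil markers summed to 1.52 to 1.74 CPM in converted, 0.892 to 2.48 CPM in resident and 11.8 to 46.7 CPM in monocyte-derived libraries. Of these, 2 had 0 reads in converted libraries (S100a9 and Camp) and 2 others had 0 reads in resident libraries (Mpo and Retnlg). Against monocyte-derived libraries, lower markers in converted libraries were 5 of 5 tested for NK cells, 3 of 4 for neutrophils, 4 of 5 for dendritic cells and 3 of 4 for mast cells, and 5 of 7 B-cell markers were higher. In resident libraries, lower markers were 3 of 5 for NK cells, 3 of 4 for neutrophils (with 1 higher) and 3 of 5 for dendritic cells, and 7 of 7 B-cell and 5 of 6 T-cell markers were higher. The part of these cells in the results against monocyte-derived libraries was not tested. Xist, the RNA that coats the silenced X of female cells, had 0, 2 and 3247 reads in converted, resident and monocyte-derived libraries, and the Y-linked Ddx3y had 5190 reads in converted, 5218 in resident and 0 in monocyte-derived libraries. Sex and macrophage origin therefore cannot be told apart in comparisons with the monocyte-derived group. Monocyte-derived library 1 stood apart from libraries 2 and 3 of its group, with a chi-square over degrees of freedom of 103 and 73.3 against them, beside 35.0 between libraries 2 and 3, so calls and counts that change without it are given with that value.

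Fold changes come from edgeR's quasi-likelihood test in one fit of all libraries, with Benjamini-Hochberg adjustment across the 13223 tested genes; calls are made at an adjusted p under 0.05. All 8 genes passed the filter on low counts. In converted against monocyte-derived macrophages 5 of the 8 were called, 4 higher (Timd4, Timd2, Mertk and Pros1) and 1 lower (Gas6), where 50.7% of all genes tested were called, 25.8% higher and 24.9% lower. In resident against monocyte-derived macrophages 5 were called, all higher (Timd4, Timd2, Mertk, Axl and Pros1), where again 50.7% of all genes were, 25.7% higher and 24.9% lower. With about every other gene called in both, a count of 5 in the fit of all libraries is close to that background. In converted against resident macrophages 2 were called, both lower (Timd4 and Timd2), where 6.07% of all genes were, 1.82% higher and 4.26% lower. Without monocyte-derived library 1, 6 of the 8 were called in the first of these comparisons, with Mfge8 also lower. In the second 7 were, with Gas6 and Mfge8 also lower, and in the third 3 were, with Pros1 also higher. With a library left out, all genes called numbered 5886 to 6845, 5680 to 6875 and 245 to 1628 in that order. Libraries did not overlap for 5 of the 8 genes in each comparison, beside 56.3%, 59.5% and 37.3% of all genes in that order. The median log2 fold change of the 8 genes was 0.87, 1.09 and -0.62 in the 3 comparisons in that order, and that of all genes tested was -0.01, 0.00 and 0.01. The first 2 comparisons share the monocyte-derived libraries, so they are not independent.

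**Figure D1:**
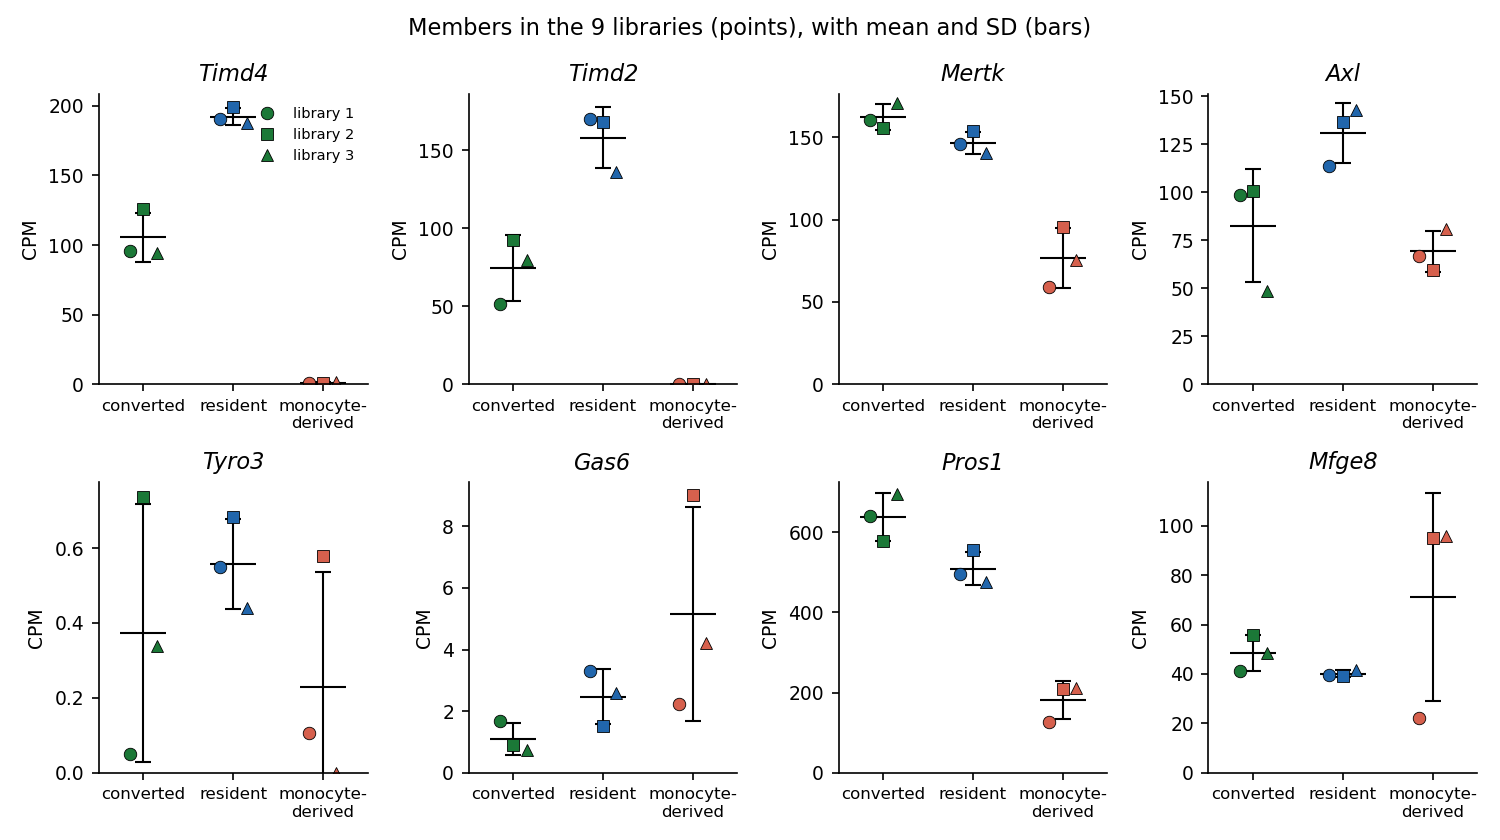
Levels of the 8 genes in CPM (linear axes from 0) in the 3 libraries of the converted, resident and monocyte-derived groups; each point is a library, the long bar is the mean and the whiskers are the SD. Timd4 and Timd2 sit at or near 0 in all monocyte-derived libraries, and the Mfge8 panel shows monocyte-derived library 1 at 22.3 CPM below libraries 2 and 3.

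Timd4 (ENSMUSG00000055546; GRCm38 chromosome 11, 46810800 to 46844332, plus strand) encodes the tethering receptor for phosphatidylserine. It had 96.0, 126 and 94.5 CPM in converted libraries 1 to 3, 190.4, 199 and 187 CPM in resident libraries and 0.747, 0.578 and 1.68 CPM in monocyte-derived libraries. The groups did not overlap in any pair: resident libraries were highest, converted libraries lay between them and the rest, and monocyte-derived libraries held 50 reads in all. Against monocyte-derived libraries Timd4 was higher by a log2 fold change of 6.74 ± 0.27 (SE) in converted macrophages (edgeR, adjusted p = 8.65e-08) and of 7.61 ± 0.27 in resident macrophages (adjusted p = 5.35e-08). These rank at places 93 and 88 of the 13223 genes tested. Converted macrophages reached 54.9% of the resident level, a log2 difference of -0.87 ± 0.18 (edgeR, adjusted p = 0.0238). That call did not hold without converted library 1 or 3 (adjusted p = 0.102 and 0.0979) or without resident library 1, 2 or 3 (0.0979, 0.0866 and 0.0950), while the log2 difference stayed between -1.01 and -0.79 in every alternative run.

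Timd2 (ENSMUSG00000040413; chromosome 11, 46668960 to 46707061, minus strand) encodes a rodent TIM protein known as a receptor for ferritin heavy chain. The gene is included here as a member of the TIM family, and binding of its product to dying cells was not measured. It had 51.2, 92.7 and 79.5 CPM in converted libraries, 170.4, 168 and 136 CPM in resident libraries, and 1 read in monocyte-derived library 1 with none in libraries 2 and 3. No reads in those 2 libraries allow up to 0.173 and 0.194 CPM (3 reads, counting error only). The order was that of Timd4, with resident libraries highest and no overlap between any groups. Because the monocyte-derived group rests on 1 read, the ratio is given with its 95% counting interval: 3808 (683 to 150444) for converted over monocyte-derived, with 4206 reads against 1, and 8108 (1455 to 320295) for resident over monocyte-derived, with 9082 reads against 1. Both were called (edgeR, adjusted p = 1.11e-07 and 6.76e-08), and by fitted fold Timd2 stood at place 4 and place 3 of the 13223 genes. Converted libraries held 47.1% of the resident level, a log2 difference of -1.09 ± 0.20 (edgeR, adjusted p = 0.0141). That call was lost without converted library 3 (0.0503) and without resident library 1 or 2 (0.0674 and 0.0539), with log2 differences of -1.27 to -0.87 over all alternatives.

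B-cell transcripts moved with the gap between converted and resident libraries. All 7 B-cell markers, Cd79a, Ms4a1 and Ighm among them, were lower in converted libraries, and none was at 0 reads in any group. Markers of T cells (4 of 6 tested), NK cells (3 of 5), mast cells (2 of 4), eosinophils (1 of 2) and dendritic cells (1 of 5) were also lower there, while none of the 7 macrophage markers was called. Within the converted group, library 2 had the highest B-cell sum (176 CPM) and the highest Timd4 and Timd2. Within the resident group, library 3 had the highest sum (1473 CPM) and the lowest Timd4 and Timd2. Converted library 3, at 80.7 CPM of B-cell markers, had 94.5 CPM of Timd4 and 79.5 CPM of Timd2, and monocyte-derived library 3, at 79.6 CPM of B-cell markers, had 1.68 CPM of Timd4 and no Timd2 read. The part of B-cell transcripts in the gap between converted and resident macrophages was not tested. In sorted bulk samples, fewer cells with a transcript and less of it per cell cannot be told apart.

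**Figure D2:**
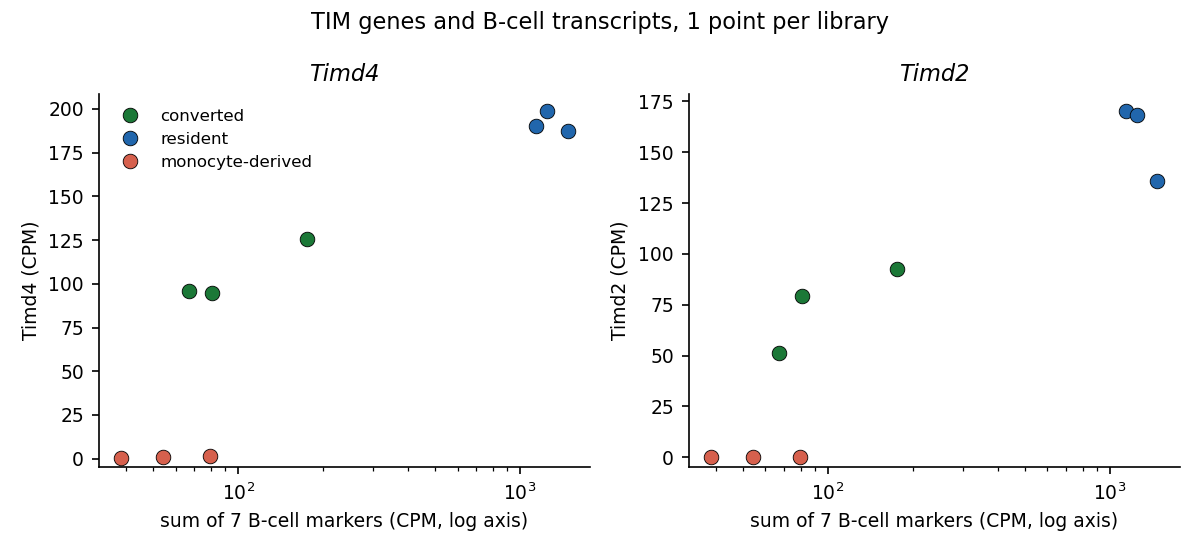
Timd4 (left) and Timd2 (right) in CPM against the summed CPM of 7 B-cell markers (log axis), 1 point per library, coloured by group. The 3 converted and the 3 monocyte-derived libraries have B-cell sums of 67.2 to 176 and 38.4 to 79.6 CPM but lie far apart in both TIM genes, and the resident libraries have the highest values of both measures.

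Timd4 and Timd2 belong to a cluster of 13 genes of the files, 7 of them protein-coding, that spans 389.4 kb from Havcr2 to Timd4. The gap between Timd2 and Timd4 is 103.7 kb, and Havcr1, the TIM-1 gene, lies in it. Havcr1 was almost silent, with 2, 4 and 4 reads in converted, resident and monocyte-derived libraries. Havcr2, which encodes the immune checkpoint receptor TIM-3 at the far end of the cluster, ran the other way: it averaged 5.92 ± 2.12 CPM in converted, 7.78 ± 0.992 CPM in resident and 38.4 ± 23.8 CPM in monocyte-derived libraries (SD, n = 3 each). It was lower in converted (log2 -2.70 ± 0.43, adjusted p = 0.000657) and in resident macrophages (log2 -2.30 ± 0.42, adjusted p = 0.00151, both by edgeR) than in monocyte-derived ones. The lincRNA Gm4926 near Timd2 had 8 reads in converted, 13 in resident and 0 in monocyte-derived libraries, and the pseudogene Gm12174 between Timd2 and Havcr1 averaged 4.25 CPM in converted, 4.55 CPM in resident and 3.87 CPM in monocyte-derived libraries. The other genes of the cluster had at most 1 read in any group. Of the stretches of 50 bases in Timd2 exons, 2.33% also occur in Gm4926 or Havcr1 transcripts, so a few reads could be assigned to either. The other 7 genes shared none with annotated genes outside the set of 8, and sharing within the set was not searched.

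**Figure D3:**
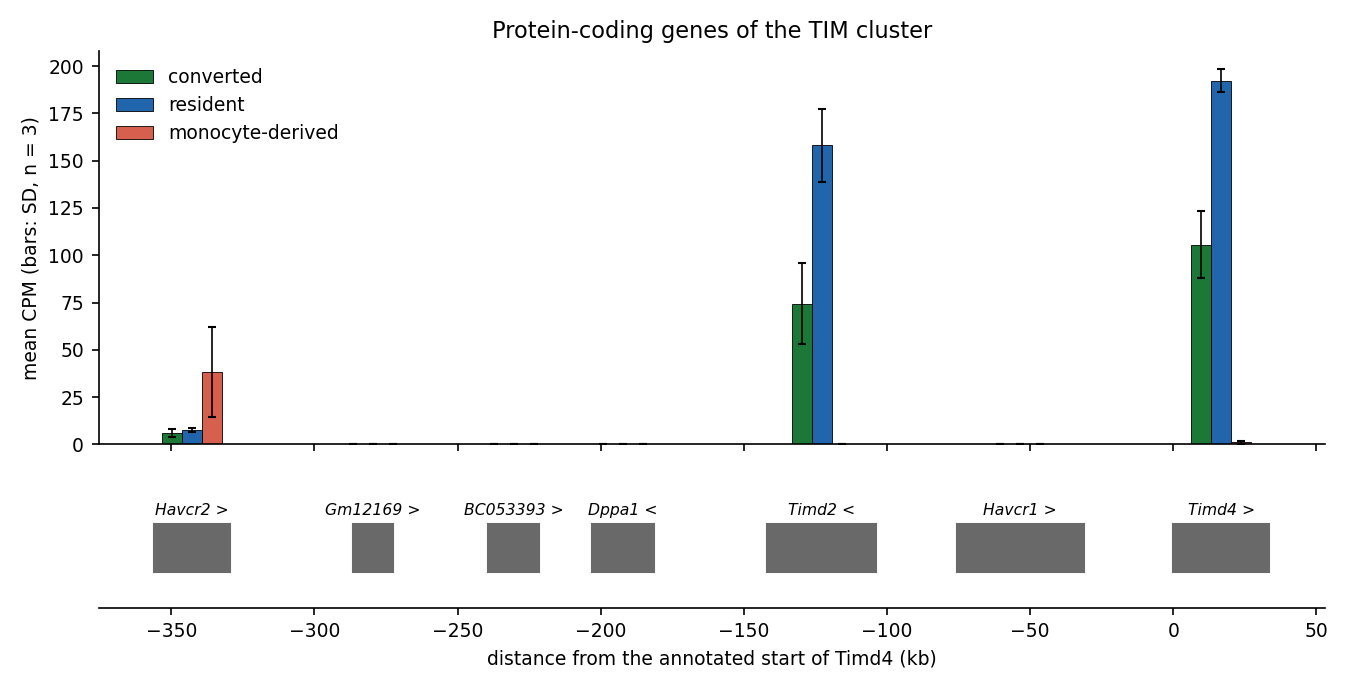
Mean CPM (bars, SD as whiskers, n = 3) of the 7 protein-coding genes of the TIM cluster in converted, resident and monocyte-derived libraries, placed by their distance in kb from the annotated start of Timd4; the lower track shows each gene's extent to scale, with > for the plus and < for the minus strand. Only Havcr2, Timd2 and Timd4 rise visibly above 0, and Havcr2 is highest in the monocyte-derived group.

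Mertk (ENSMUSG00000014361; chromosome 2, 128698956 to 128802894, plus strand) encodes the TAM kinase that drives engulfment in many tissue macrophages. It had 160.5, 156 and 171 CPM in converted libraries, 146, 154 and 140.2 CPM in resident libraries and 59.3, 95.4 and 75.4 CPM in monocyte-derived libraries. Both the converted and the resident libraries lay wholly above the monocyte-derived libraries. Mertk was higher in converted (log2 1.08 ± 0.15, adjusted p = 0.000178) and in resident macrophages (log2 0.94 ± 0.14, adjusted p = 0.00045, edgeR) than in monocyte-derived ones. Between converted and resident libraries, which also did not overlap, the log2 difference was 0.15 with a 95% interval of -0.17 to 0.47 (edgeR, adjusted p = 0.619). An antisense gene and a small nucleolar RNA gene that overlap Mertk introns had 15 and 14 reads over the 9 libraries.

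Axl (ENSMUSG00000002602; chromosome 7, 25757273 to 25788705, minus strand) encodes the TAM kinase that pairs most closely with Gas6. It had 98.4, 101 and 48.7 CPM in converted libraries, 113, 137 and 143 CPM in resident libraries and 67.0, 59.5 and 81.0 CPM in monocyte-derived libraries. Converted library 3 lay below every monocyte-derived library, while libraries 1 and 2 lay above them all, so these groups overlapped. Resident macrophages had more Axl than monocyte-derived ones (log2 0.92 ± 0.25, edgeR, adjusted p = 0.0117), a call that was lost with no filter on low counts (0.0556). For converted over monocyte-derived macrophages the log2 difference was 0.26 with an interval of -0.30 to 0.81 (edgeR, adjusted p = 0.416). Without converted library 3 it was 0.53 and was called (adjusted p = 0.0155). Converted libraries were all below the resident ones, with a log2 difference of -0.67 that did not pass (interval -1.22 to -0.11, edgeR, adjusted p = 0.162).

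Tyro3 (ENSMUSG00000027298; chromosome 2, 119797733 to 119818104, plus strand), the TAM kinase best known from the nervous system, was barely transcribed. It had 1, 14 and 6 reads in converted libraries, 10, 13 and 9 reads in resident libraries and 2, 10 and 0 reads in monocyte-derived libraries. The groups overlapped, and no comparison was called (edgeR, adjusted p = 0.601, 0.296 and 0.763). The resident over monocyte-derived difference passed without monocyte-derived library 2, at a log2 of 3.13 and an adjusted p of 0.0494, a value that rests on 2 reads in the remaining libraries. Per transcript length (RPKM), Mertk made up 65.4%, 64.1% and 80.2% of the summed TAM kinases in converted libraries, 59.8%, 56.5% and 53.2% in resident libraries and 50.6%, 64.8% and 51.9% in monocyte-derived libraries. Nearly all of the rest was Axl, and Tyro3 was at most 0.275% in any library. The summed TAM kinases averaged 53.9 ± 4.14 RPKM in converted, 60.0 ± 3.28 RPKM in resident and 31.5 ± 3.88 RPKM in monocyte-derived libraries (SD, n = 3 each).

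**Figure D4:**
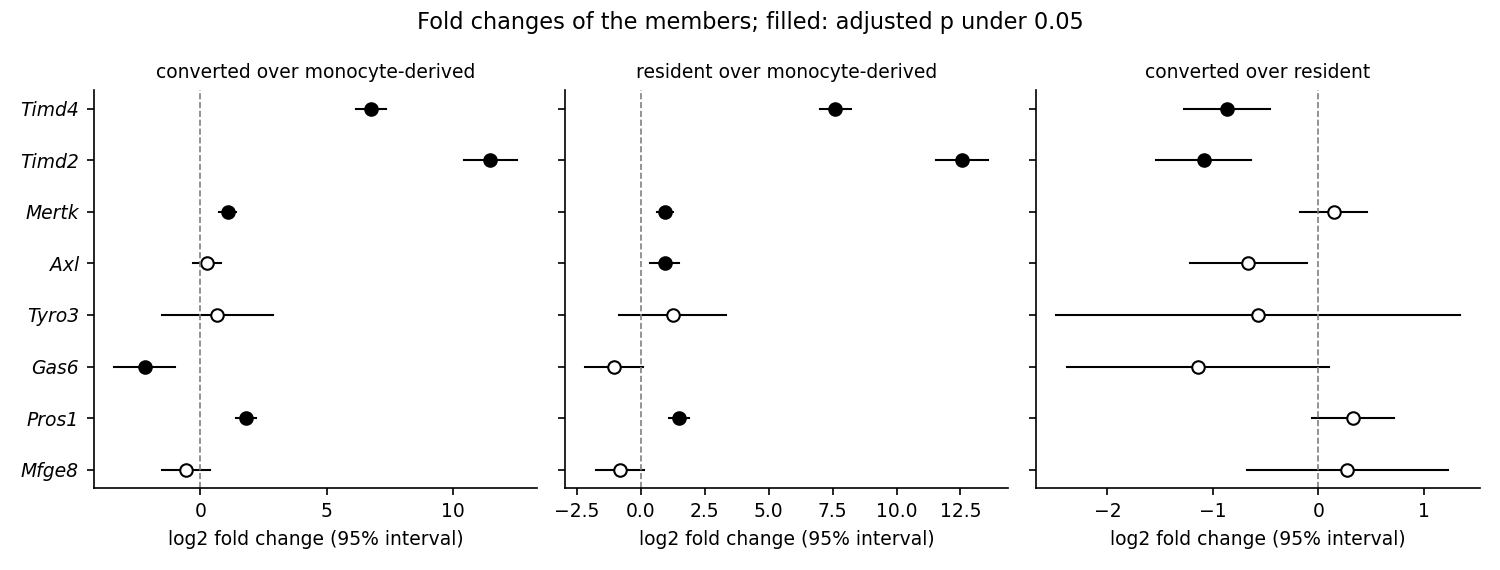
Log2 fold changes (points) with 95% intervals (lines) of the 8 genes for converted over monocyte-derived, resident over monocyte-derived and converted over resident macrophages; filled points have an adjusted p under 0.05 and horizontal scales differ between panels. The TIM genes lie farthest from 0 in the left and middle panels, where the Timd2 point is a fitted value that rests on 1 monocyte-derived read, and they are the called genes of the right panel.

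Pros1 (ENSMUSG00000022912; chromosome 16, 62854307 to 62929346, plus strand), which encodes protein S, the bridge shared by Mertk and Tyro3 and also an anticoagulant of plasma, was the most abundant of the 8 genes per transcript length. It had 639.9, 577 and 696 CPM in converted libraries, 496, 555 and 475 CPM in resident libraries and 127, 209 and 210.4 CPM in monocyte-derived libraries. The 3 groups did not overlap, with converted libraries highest. Pros1 was higher in converted (log2 1.81 ± 0.18, adjusted p = 2.69e-05) and in resident macrophages (log2 1.48 ± 0.18, adjusted p = 9.28e-05, edgeR) than in monocyte-derived ones. The difference of converted over resident macrophages was 0.33 on the log2 scale, with an interval of -0.06 to 0.71, and did not pass (edgeR, adjusted p = 0.331). It did pass without monocyte-derived library 1 (0.0307) and in a fit of these 2 groups alone (0.0381), at log2 differences of 0.33 and 0.31.

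Gas6 (ENSMUSG00000031451; chromosome 8, 13465374 to 13494490, minus strand), the bridge that binds all TAM kinases, was scarce. It had 1.69, 0.893 and 0.731 CPM in converted libraries, 3.30, 1.52 and 2.59 CPM in resident libraries and 2.24, 9.02 and 4.21 CPM in monocyte-derived libraries. Converted libraries lay below every monocyte-derived library, and resident libraries overlapped both groups. Gas6 was lower in converted than in monocyte-derived macrophages (log2 -2.20 ± 0.55, edgeR, adjusted p = 0.00732), and this call held in all 20 alternatives. The resident over monocyte-derived difference was -1.06 (edgeR, adjusted p = 0.109), and -1.43 without monocyte-derived library 1, when it passed (0.0171). The converted over resident difference was -1.14 (edgeR, adjusted p = 0.283). Fibroblast markers, 6 genes, summed to 4.64, 0.0525 and 1.97 CPM in converted libraries, 1.38, 0.472 and 1.32 CPM in resident libraries and 0, 9.60 and 1.17 CPM in monocyte-derived libraries. Monocyte-derived library 2 thus had the highest value of both Gas6 and fibroblast markers, and the part of other cells in the Gas6 values was not tested. The exons of Gas6 overlap those of Tmem255b by 34 bases, and Tmem255b had 0 reads.

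Mfge8 (ENSMUSG00000030605; chromosome 7, 79133768 to 79149060, minus strand), which encodes the bridge to integrins, had 41.3, 55.8 and 48.6 CPM in converted libraries, 39.4, 39.3 and 41.8 CPM in resident libraries and 22.3, 94.9 and 95.9 CPM in monocyte-derived libraries. Monocyte-derived library 1 lay below all other libraries and libraries 2 and 3 lay above them all. No comparison was called in the fit of all libraries, with log2 differences of -0.55, -0.82 and 0.27 (edgeR, adjusted p = 0.310, 0.137 and 0.773). Without monocyte-derived library 1, Mfge8 was lower in converted (log2 -0.97, adjusted p = 5.13e-05) and in resident macrophages (log2 -1.25, adjusted p = 9.26e-06, edgeR) than in monocyte-derived ones. Itgb5, which encodes the beta subunit of an integrin that the Mfge8 product binds, averaged 0.0895 ± 0.0849 CPM in converted, 0.0163 ± 0.0283 CPM in resident and 44.2 ± 7.60 CPM in monocyte-derived libraries. Itgb3 and Itgav, other integrin subunit genes, were picked here after their values were seen. Itgb3 averaged 21.3 CPM in converted, 25.7 CPM in resident and 119 CPM in monocyte-derived libraries, and Itgav 45.4, 36.4 and 56.9 CPM.

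Ordered by mean RPKM, which takes transcript length into account, the 8 genes ran Pros1 (156), Timd4 (48.5), Mertk (37.4), Timd2 (21.4), Axl (16.4), Mfge8 (10.3), Gas6 (0.434) and Tyro3 (0.0604) in converted libraries. In resident libraries the order was Pros1 (124), Timd4 (88.5), Timd2 (45.5), Mertk (33.8), Axl (26.0), Mfge8 (8.56), Gas6 (0.970) and Tyro3 (0.0899). Monocyte-derived libraries had Pros1 (44.6), Mertk (17.7), Mfge8 (15.1), Axl (13.7), Gas6 (2.02) and Timd4 (0.461), with Tyro3 (0.0368) and Timd2 (0.00512) last. The SDs of Mertk, Mfge8 and Axl in monocyte-derived libraries were 4.17, 8.98 and 2.16 RPKM, more than the steps between them, so their order there is not resolved; the same holds for Timd2 and Axl in converted libraries, with SDs of 6.10 and 5.83. The RPKM ratio of Timd4 to Mertk was 1.103 to 1.61 in converted, 2.58 to 2.67 in resident and 0.0121 to 0.0445 in monocyte-derived libraries. The ratio of Gas6 to Pros1 was at most 0.0692 in any library.

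The protein-coding genes most like each of these in log2 CPM over the 9 libraries (Pearson's r among 9447 genes averaging at least 5 CPM) were Plekha6, Engase and Gbp2b for Timd4, each at r = 0.996, and Lrg1 (0.998), Khk (0.997) and Inka1 (0.997) for Timd2. Those for Mertk were Amacr, Aplp2 and Itsn1 (0.995 to 0.996), and those for Pros1 were Scarf1, Idh1 and Itgb1 (each 0.995). Axl was nearest to Zfp217 (0.947), Stk39 (0.940) and Eid2b (0.936). The 9 points share 3 groups, and Gbp2b, for example, averaged 332 CPM in converted, 555 CPM in resident and 0.473 CPM in monocyte-derived libraries. Gas6, Mfge8 and Tyro3 were nearest to Sh3glb2 (0.969), Tceal9 (0.962) and Tkfc (0.938).

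Beyond these 8, 9 lists of other genes of dead-cell clearance held 98 tested genes. In converted against monocyte-derived macrophages 36 were higher and 31 lower (68.4%, beside 50.7% of all genes tested), and in resident against monocyte-derived macrophages 35 were higher and 42 lower (78.6%, again beside 50.7%). Their median log2 fold changes were -0.04 and -0.06. Without monocyte-derived library 1, 38 were higher and 34 lower in converted, and 35 higher and 45 lower in resident macrophages. With a library left out, all genes called numbered 5886 to 6845 for converted and 5680 to 6875 for resident macrophages. The listed genes thus changed in both directions.

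**Figure D5:**
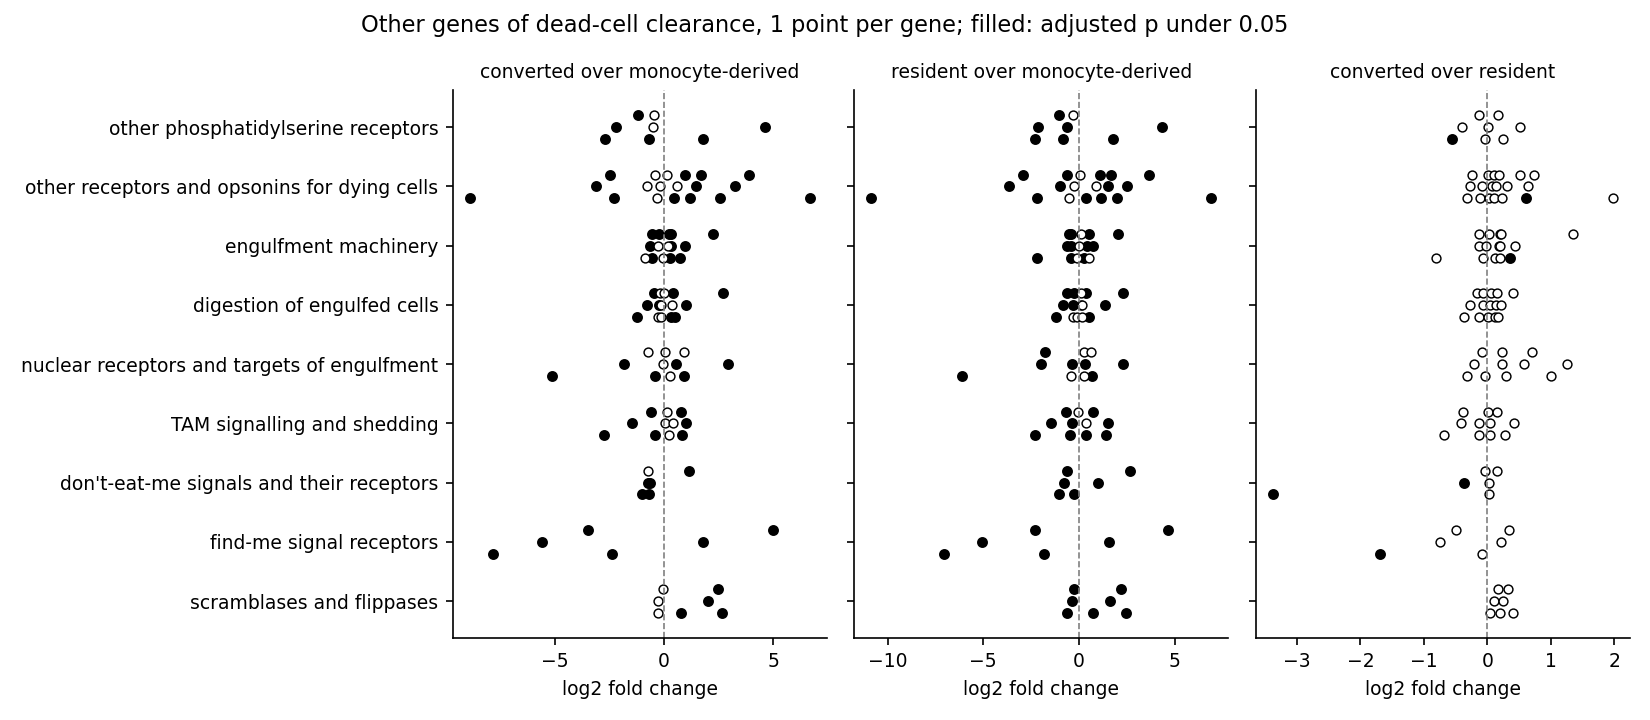
Log2 fold changes of the tested genes of 9 clearance lists (1 point per gene, spread vertically within its list) for converted over monocyte-derived, resident over monocyte-derived and converted over resident macrophages; filled points have an adjusted p under 0.05. Points lie on both sides of 0 in the left and middle panels, and 6 of 98 are filled in the right panel.

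Other phosphatidylserine receptors changed in both directions: of 8 tested, 2 were higher and 4 lower in converted, and 2 higher and 5 lower in resident macrophages, against monocyte-derived ones. These calls were 75.0% and 87.5% of the genes tested, beside 50.7% of all genes in each comparison. Without monocyte-derived library 1, of 9 tested, 2 were higher and 6 lower in converted, and 2 higher and 7 lower in resident macrophages. Cd300ld, a CD300-family receptor, averaged 318 ± 44.0 CPM in converted, 314 ± 16.3 CPM in resident and 91.9 ± 34.0 CPM in monocyte-derived libraries (edgeR, adjusted p = 0.000259 for converted and 0.000278 for resident). Trem2, a lipid-sensing receptor, averaged 48.7 ± 11.3 CPM in converted, 50.05 ± 11.8 CPM in resident and 221 ± 61.0 CPM in monocyte-derived libraries and was lower in converted (edgeR, adjusted p = 9.17e-05) and in resident macrophages (0.000102). Among 19 other receptors and opsonins, 9 were higher and 4 lower in converted, and 9 higher and 6 lower in resident macrophages (9 and 5, and 8 and 6, without monocyte-derived library 1). In the fit of all libraries that was 68.4% and 78.9% called, beside the same 50.7% of all genes. Thbs1, which encodes thrombospondin, a bridge to dying cells, averaged 1493 ± 349 CPM in converted, 1319 ± 358 CPM in resident and 102 ± 51.5 CPM in monocyte-derived libraries. The scavenger receptor gene Marco was higher at 8.61 ± 5.65 CPM in converted and 10.2 ± 1.497 CPM in resident libraries, beside 0.0756 ± 0.0888 CPM in monocyte-derived libraries. Olr1, another scavenger receptor gene, was lower at 4.70 ± 3.39 CPM in converted and 3.23 ± 1.22 CPM in resident libraries, beside 40.7 ± 17.7 CPM in monocyte-derived libraries. Itgb5 was called lower in both comparisons as well (all by edgeR, adjusted p 0.000632 or less). The 3 C1q genes, picked here after their values were seen, were called higher in both, with log2 fold changes of 0.98 to 1.71 in converted and 1.097 to 1.69 in resident macrophages.

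Of 15 genes of the engulfment machinery, 7 were higher and 4 lower in converted, and 5 higher and 6 lower in resident macrophages (4 and 6 in resident macrophages without monocyte-derived library 1), against monocyte-derived ones. In the fit of all libraries 73.3% were called in both comparisons, beside 50.7% of all genes tested. The focal adhesion kinase gene Ptk2 averaged 61.3 ± 7.58 CPM in converted, 53.5 ± 4.00 CPM in resident and 13.2 ± 4.98 CPM in monocyte-derived libraries (edgeR, adjusted p = 5.22e-05 for converted and 9.36e-05 for resident). The transporter gene Abca7 was higher in both (log2 0.95 in converted and 0.75 in resident) and Elmo2, which encodes an adaptor for Rac activation, lower in both (log2 -0.64 in converted and -0.62 in resident). Rhog, a GTPase gene upstream of that adaptor, was lower in both (log2 -0.57 in converted and -0.50 in resident), and Abca1, a cholesterol exporter, was lower in resident macrophages (log2 -2.19) with a log2 difference of -0.84 that did not pass in converted ones (adjusted p = 0.321). Of 15 genes of corpse digestion, 5 were higher and 4 lower in converted, and 4 higher and 5 lower in resident macrophages (5 and 5 in resident macrophages without monocyte-derived library 1). With all libraries 60.0% were called in both comparisons, near the 50.7% of all genes. Cybb, the catalytic subunit of the phagocyte NADPH oxidase, averaged 1083 ± 64.8 CPM in converted, 819.9 ± 33.8 CPM in resident and 169 ± 42.4 CPM in monocyte-derived libraries. Rubcn, which acts in LC3-associated phagocytosis, was higher in both (log2 1.01 in converted and 1.38 in resident), and the late endosome GTPase gene Rab7 (log2 -0.79 in converted and -0.81 in resident) and the lysosomal nucleoside transporter gene Slc29a3 (log2 -1.25 in converted and -1.18 in resident) were lower in both (all calls by edgeR, adjusted p 0.0281 or less).

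Among 11 genes of TAM signalling and receptor shedding, 3 were higher and 4 lower in converted, and 4 higher and 5 lower in resident macrophages, against monocyte-derived ones. These calls were 63.6% and 81.8% of the genes tested, beside 50.7% of all genes in each comparison. Without monocyte-derived library 1, 5 were higher and 4 lower in converted macrophages. TAM kinases are known to act with the type I interferon receptor to induce the cytokine brakes Socs1 and Socs3. Those brakes moved apart: Socs3 averaged 113 ± 29.5 CPM in converted, 181 ± 20.1 CPM in resident and 63.0 ± 7.47 CPM in monocyte-derived libraries, and Socs1 averaged 22.4 ± 13.4 CPM in converted, 29.7 ± 1.33 CPM in resident and 147 ± 43.9 CPM in monocyte-derived libraries. The interferon receptor gene Ifnar1 was lower in both (log2 -1.46 in converted and -1.47 in resident) (all by edgeR, adjusted p 0.00342 or less). Of 11 nuclear receptors and their targets after engulfment, 3 were higher and 3 lower in converted, and 3 higher and 4 lower in resident macrophages (4 and 5 in resident macrophages without monocyte-derived library 1). With all libraries that was 54.5% and 63.6% called, near the 50.7% of all genes. Apoe averaged 767 ± 283 CPM in converted, 512 ± 73.3 CPM in resident and 102 ± 51.2 CPM in monocyte-derived libraries, and Pparg, a lipid-sensing nuclear receptor that IL-4 induces in macrophages, averaged 2.40 ± 0.807 CPM in converted, 1.20 ± 0.458 CPM in resident and 84.0 ± 29.2 CPM in monocyte-derived libraries. Its partner Rxra was higher in both (log2 0.94 in converted and 0.71 in resident), Nr1h3, the liver X receptor alpha gene, was lower in both (log2 -1.81 in converted and -1.77 in resident), and the desaturase gene Scd2 was lower in resident macrophages (log2 -2.01; all these calls by edgeR, adjusted p 0.0163 or less), with a log2 difference of -0.75 that did not pass in converted ones (adjusted p = 0.175).

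Between converted and resident macrophages 6 of the 98 listed genes were called (6.12%, beside 6.07% of all genes tested), 2 higher and 4 lower. Msr1, a scavenger receptor gene, was higher at 511 ± 80.02 CPM in converted and 336 ± 34.4 CPM in resident libraries (log2 0.60, adjusted p = 0.0376), and Vav3, an exchange factor for Rac, was higher at 63.1 ± 2.52 CPM in converted and 49.2 ± 2.94 CPM in resident libraries (log2 0.36, adjusted p = 0.0324). Cd300lf, a phosphatidylserine receptor of the CD300 family, was lower at 40.3 ± 6.09 CPM in converted and 59.1 ± 2.99 CPM in resident libraries (log2 -0.55, adjusted p = 0.0435). Cd47, the don't-eat-me signal, was lower at 259.5 ± 19.4 CPM in converted and 336 ± 14.2 CPM in resident libraries (log2 -0.37, adjusted p = 0.0285). Siglecg, a lectin for Cd24a known from B-1 cells, was lower at 3.27 ± 1.72 CPM in converted and 34.1 ± 3.28 CPM in resident libraries (log2 -3.38, adjusted p = 0.00305, all by edgeR), alongside the B-cell markers given above. Gpr132, a receptor for lysolipids released by dying cells, picked here after its values were seen, was lower at 1.48 ± 0.327 CPM in converted and 4.79 ± 0.747 CPM in resident libraries (edgeR, log2 -1.69, adjusted p = 0.0034). The count was 14 without monocyte-derived library 1, and 2 or 3 when any converted or resident library was left out. The number of all genes called in this comparison moved as well, between 245 and 1628 with a library left out, beside 803 in the fit of all libraries. In the lists without a call, the most abundant genes had log2 differences of 0.05 (Lamp1), 0.58 (Apoe), 0.15 (Adam10) and 0.04 (Ano6), with adjusted p of 0.899, 0.443, 0.443 and 0.856 by edgeR.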

How the data were processed

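RNA was measured by RNA-seq (TotalScript low-input libraries of sorted macrophages, per the labels' protocols) in 9 libraries of 3 groups. The authors deposited unnormalized counts of reads per gene, made with TopHat2 2.1.0 and HTSeq on GRCm38 per the submitters' processing notes; their annotation, strand setting and treatment of multi-mapping reads are not stated in those sources. Of 47729 gene identifiers, 47310 matched GENCODE M21; the other 419 held 0.0644% to 0.108% of reads. Summary lines that name no gene (4.02% to 5.66% of reads in no feature, 4.47% to 4.68% ambiguous) were left out.

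Counts were filtered (filterByExpr, minimum count 10, minimum total 15), scaled by TMM and tested with edgeR 4.0.16 (limma 3.58.1, R 4.3.3; robust quasi-likelihood test, 6 residual degrees of freedom, Benjamini-Hochberg adjustment), a procedure tested on simulated data. Groups follow the sample titles. CPM use TMM-scaled library sizes and RPKM the union of exon lengths. No library was a duplicate: within groups the lowest chi-square over degrees of freedom was 5.99. The counting intervals of the Timd2 ratios and the floors of 3 reads cover counting error only. Intervals of log2 differences come from the edgeR fit and include the spread between libraries.

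The genes, lists and tests were chosen with earlier results of these data known. Named list genes are the 2 called genes of largest fold per list, direction and comparison averaging at least 5 CPM in the higher group, or the most abundant gene where none was called; 1 gene chosen by this rule is not reported here. Alternatives were other scalings and filters, DESeq2 1.42.0, limma-voom, fits of 2 groups, protein-coding genes alone, chromosomes X and Y left out, a replicate block and each library left out. ATAC-seq was not analysed here.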

Additional observations from a re-analysis of the deposited data

How the results depend on the processing

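Over the 8 genes and 3 comparisons, 20 alternatives gave 475 values, of which 458 kept the side of the threshold, 10 lost a call, 7 gained one and none reversed a call. Among the 458, the uncalled Tyro3 difference between converted and monocyte-derived libraries changed sign without converted library 2 (log2 -0.29, reported 0.66); no other difference did. The calls of Timd4, Timd2, Mertk and Pros1 against monocyte-derived libraries and of Gas6 in converted against monocyte-derived libraries held in every alternative run. The number of genes called in converted against resident libraries was the least stable count: 803 in the fit of all libraries (240 higher, 563 lower), 739 with upper-quartile scaling (133 and 606), 669 with total reads (126 and 543), 1364 with DESeq2, 2067 in a fit of those 2 groups alone and 245 to 1628 when a library was left out. The count of the 8 genes called there was 0 to 3 when a library was left out. Against monocyte-derived libraries the counts of genes called lay between 5496 and 6870 for converted and between 6109 and 6858 for resident libraries over the alternatives, and between 5886 and 6845 and between 5680 and 6875 with a library left out; the counts of the 8 genes lay between 5 and 6, and between 4 and 7. The counts for the other clearance lists were recomputed as an alternative chosen after seeing the data.

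Deviations of same-numbered libraries from their group means correlated weakly between groups (-0.0939 to 0.0651). Libraries of unlike number were not compared in this way, so these values cannot settle whether the numbers pair the samples. With the replicate number as a block, 530 genes and 1 of the 8 genes were called in converted against resident libraries, and Timd4 had a log2 difference of -0.87 and an adjusted p of 0.0583. Low read counts of the genes limit the results for Tyro3 and Gas6, and for Timd2 in monocyte-derived libraries. The cause of these changes was not tested.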

Other observations

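Receptors for find-me signals, which guide macrophages to dying cells, were called against monocyte-derived libraries for 6 of 6 tested, 2 higher and 4 lower in both converted and resident macrophages, where 50.7% of all genes tested were called in each comparison. S1pr1, a receptor for the lipid sphingosine-1-phosphate, averaged 81.4 ± 14.8 CPM in converted, 64.4 ± 2.96 CPM in resident and 2.68 ± 2.87 CPM in monocyte-derived libraries, and the nucleotide receptor gene P2ry2 was also higher (log2 1.78 in converted and 1.57 in resident). P2ry6, another nucleotide receptor gene, averaged 0.390 ± 0.102 CPM in converted, 0.645 ± 0.377 CPM in resident and 88.1 ± 27.8 CPM in monocyte-derived libraries (edgeR, adjusted p = 2.50e-07 for converted and 3.49e-07 for resident). Gpr132 (log2 -3.49 in converted and -1.80 in resident) and S1pr2 (log2 -2.35 in converted and -2.27 in resident) were lower in both.

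Scramblases and flippases, which set on which face of the membrane phosphatidylserine lies, had 4 of 7 genes higher and none lower in converted, and 4 higher and 3 lower in resident macrophages, against monocyte-derived ones. These calls were 57.1% and 100% of the list, beside 50.7% of all genes tested in each comparison. The flippase gene Atp8a1 averaged 89.4 ± 1.23 CPM in converted, 79.8 ± 6.11 CPM in resident and 14.2 ± 1.63 CPM in monocyte-derived libraries, and the scramblase gene Xkr8 averaged 22.6 ± 2.39 CPM in converted, 19.2 ± 3.05 CPM in resident and 4.06 ± 2.22 CPM in monocyte-derived libraries. In resident macrophages the flippase genes Atp11a (log2 -0.61) and Atp11b (log2 -0.36) were lower, and in converted ones they did not pass (log2 -0.28 and -0.26, adjusted p = 0.0683 and 0.0616). Among 6 don't-eat-me signals and their receptors, 1 was higher and 4 lower in converted, and 2 higher and 4 lower in resident macrophages. That was 83.3% and 100% called, beside the same 50.7% of all genes. Cd24a was higher (log2 1.13 in converted and 0.98 in resident), Pirb (log2 -0.997 in converted and -1.03 in resident) and Pecam1 (log2 -0.74 in converted and -0.77 in resident) were lower in both, and Siglecg was higher in resident macrophages (log2 2.65; -0.73 in converted ones, adjusted p = 0.184), where B-cell markers were highest. All changes named as higher or lower passed edgeR's test, at an adjusted p of 0.0160 or less.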
